A study of Mus musculus with 32 samples.

Results

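Expression of 10 genes that mark lipid-associated macrophages was followed in 3 fat depots and the liver of *Gpr146* wild-type and knockout mice on a high fat diet (HFD). The genes are the receptor *Trem2* and its adaptor *Tyrobp*, the surface proteins *Gpnmb*, *Cd9* and *Itgax*, the secreted proteins *Spp1* and *Lgals3*, the lipid and retinoid genes *Fabp5* and *Dhrs9*, and *Tm4sf19*. They are 10 of the 24646 genes of each table, and all 10 were measured in every tissue. They were chosen from known macrophage genes with the knockout and wild-type values of epididymal white fat (eWAT) already seen, *Dhrs9* and *Tm4sf19* having been singled out in that comparison. The eWAT difference is therefore given as a description, and nothing is read from a test of the 10 genes there. Inguinal white fat (iWAT) and brown fat (BAT) were tested, as was liver, the contrast tissue, and these came from the same mice.

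In obese fat, macrophages gather around dying adipocytes, engulf their lipid and break it down in lysosomes. TREM2 is a surface receptor that binds lipids and lipoproteins, and it signals through the adaptor TYROBP (DAP12) to the kinase SYK. Macrophages of this state are known for raised TREM2, CD9, GPNMB and osteopontin (*Spp1*), and macrophages of other states in the same fat carry little of them.

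Each of 4 wild-type and 4 knockout male littermates on the C57BL/6J background, aged 20 weeks and fed HFD for 3 months, gave liver, eWAT, iWAT and BAT, all collected after an overnight fast (32 arrays). The knockout mice lack *Gpr146* in the whole body, from a line made with CRISPR/Cas9, so macrophages, adipocytes and hepatocytes all carried the deletion. RNA came from whole tissue, in which fewer cells of a type and less RNA per cell cannot be told apart. The titles of the liver knockout samples name both genotypes, whereas genotype, source and description give knockout, which is how these samples were grouped.

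*Gpr146*, which encodes an orphan receptor, was lower in every knockout mouse than in every wild-type mouse of the same tissue. Its mean log2 value was 5.69 ± 0.32 (SD, n = 4) in wild-type and 4.16 ± 0.43 (SD, n = 4) in knockout eWAT, and 6.22 ± 0.06 against 4.45 ± 0.16 in liver. Adipocyte markers averaged 8.05 to 9.13 on each fat array, and hepatocyte markers 11.4 to 11.5 on each liver array. In iWAT, B-cell markers, which mark lymph node tissue, averaged 7.58 to 7.92 in wild-type mice 1 and 2 and knockout mouse 2 and 5.84 in knockout mouse 4, against 3.26 to 3.73 in the other 4. In BAT, skeletal muscle markers averaged 7.09 to 8.04 in wild-type mice 2 and 3 and knockout mouse 2, against 3.48 to 4.31 in the other 5. The calls, medians and overlaps of the 10 genes in these depots are given with and without those arrays, and all other values with all arrays.

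All 10 genes were lower in knockout eWAT, with a median log2 change of -2.51 against 0.03 over all genes. The change ran from -0.85 for *Cd9*, a tetraspanin, to -3.72 for *Dhrs9*, a retinol dehydrogenase. Every knockout value of every one of the 10 genes lay below every wild-type value, as it did for 13.0% of all genes. All 10 passed an adjusted p below 0.05 in the lower direction in the fit over all genes, as did 10.7% of all genes (limma). Since the genes were chosen with this comparison known, nothing is read from either count. The second was 10 without knockout mouse 2, beside 14.2% of all genes called lower. It was 6 without knockout mouse 3 and 5 without any other 1 of the mice, beside 4.33% to 8.58% of all genes.

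*Trem2* measured 8.62, 8.56, 8.63 and 8.50 in wild-type mice 1 to 4 and 3.59, 8.10, 5.85 and 4.31 in knockout mice 1 to 4, a log2 change of -3.12 (standard error, SE, 0.80), or 8.67-fold lower. The wild-type mice lay within 0.13 of each other, the knockout mice were spread over more than 4 log2 units, and knockout mouse 2 came close to wild type. *Tyrobp* measured 8.92, 8.94, 8.83 and 8.85 in wild-type and 5.70, 8.56, 6.78 and 6.12 in knockout eWAT, a change of -2.09 (SE 0.51). Receptor and adaptor placed the knockout mice in the same order, with mouse 2 highest, then mouse 3, mouse 4 and mouse 1.

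*Gpnmb*, a transmembrane glycoprotein of lysosome-rich macrophages, measured 10.78, 10.92, 10.87 and 10.87 in wild-type and 6.69, 10.43, 8.58 and 7.17 in knockout eWAT. *Itgax*, which encodes the integrin CD11c, measured 7.80, 7.86, 8.20 and 7.85 in wild-type and 4.13, 7.63, 5.23 and 3.97 in knockout eWAT. In both genes 3 knockout mice lay at least 2.20 below every wild-type mouse, and mouse 2 lay 0.43 below the wild-type mean for *Gpnmb* and 0.30 below it for *Itgax*. *Cd9* measured 5.53 to 5.73 in wild-type and 4.53 to 5.24 in knockout eWAT, a change of -0.85 (SE 0.14).

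Of the secreted proteins, *Spp1* (osteopontin) measured 5.09, 6.31, 6.07 and 6.13 in wild-type and 2.79, 4.84, 3.47 and 3.00 in knockout eWAT. Wild-type mouse 1 was low for this gene and stood 0.25 above knockout mouse 2. *Lgals3*, which encodes the lectin galectin-3, changed by -1.45 (SE 0.34), from 7.25 ± 0.06 to 5.80 ± 0.84 (SD, n = 4 each). *Fabp5*, a fatty acid carrier, changed by -1.18 (SE 0.21), from 7.46 ± 0.38 to 6.28 ± 0.32, and was the 1 member whose spread was no larger in knockout than in wild-type mice.

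*Dhrs9* and *Tm4sf19* had the largest changes of the 10. *Dhrs9* measured 7.34, 7.32, 7.41 and 7.54 in wild-type and 2.65, 6.46, 3.16 and 2.45 in knockout eWAT, 13.2-fold lower in the mean. *Tm4sf19*, a tetraspanin-like membrane protein, measured 8.59, 8.84, 8.74 and 8.73 in wild-type and 4.00, 7.73, 5.31 and 4.10 in knockout eWAT, 10.9-fold lower. For *Dhrs9*, knockout mice 1 and 4 lay below the median of all genes in wild-type eWAT, 3.16, whereas 0 of the *Tm4sf19* values did.

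**Figure D1:**
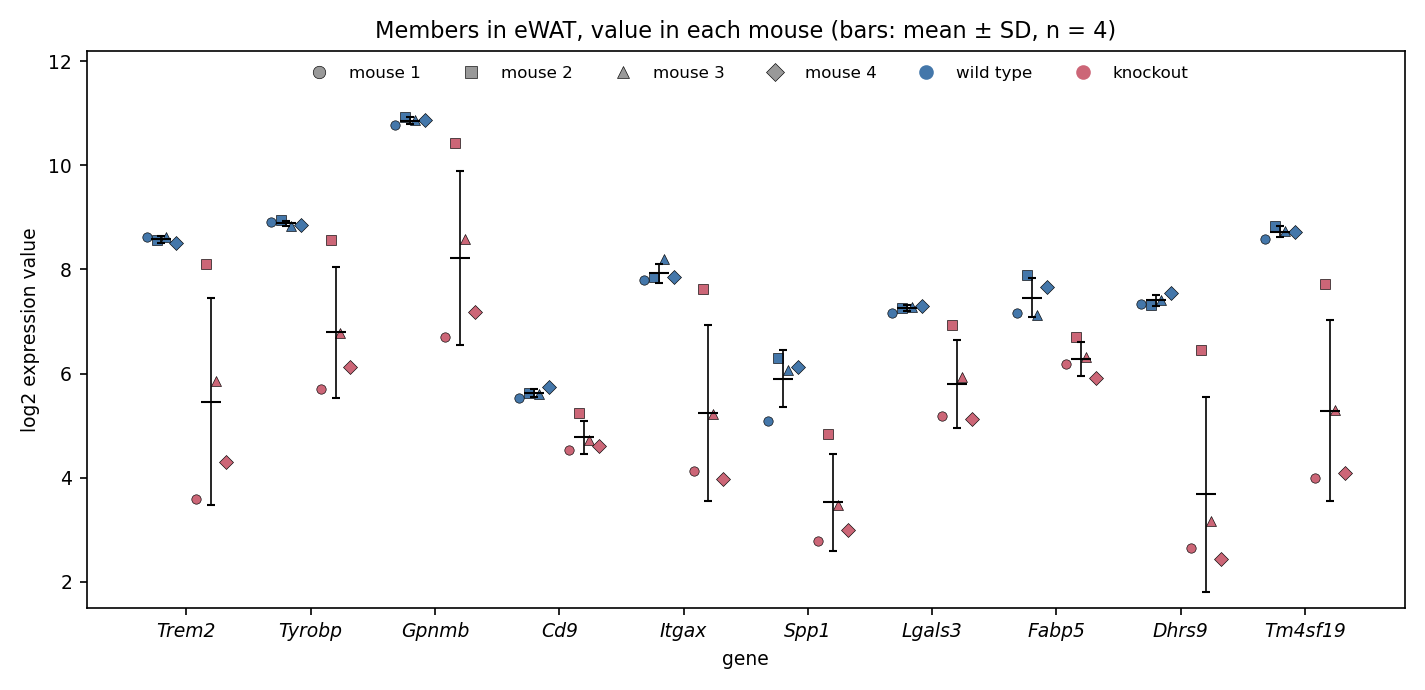
Log2 expression of the 10 genes in eWAT of each wild-type (blue) and knockout (red) mouse, with mean and SD (n = 4) as bars and the mouse number as the marker shape. The wild-type points lie close together, and the square of knockout mouse 2 is the highest knockout point for each gene.

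Knockout mouse 2 was the highest knockout mouse for 10 of the 10 genes in eWAT. Its distance from the wild-type mean ran from -1.06 to -0.30 over the genes, and that of the mean of the other 3 knockout mice from -4.65 to -1.001. Its *Gpr146* value was the lowest of the 4 knockout mice in eWAT (3.63), iWAT (3.82) and liver (4.26) and the highest in BAT (4.69). The part of *Gpr146* in its place near wild type was not tested. Without this mouse the median log2 change was -3.10, *Trem2* changed by -3.99 and *Dhrs9* by -4.65. Other cell markers moved with the same mouse: 9 general macrophage genes averaged 7.89 in it, 5.96 to 6.58 in the other knockout mice and 8.21 to 8.49 in wild-type mice. Fibroblast and progenitor markers averaged 7.65 in it, 6.64 to 6.76 in the other knockout mice and 7.77 to 8.09 in wild-type mice, and their part in the values of the 10 genes was not tested.

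Promoter windows of 250 bases before to 50 after the start site were held by RefSeq (GRCm38.p6) for 8 of the 10 genes, in 9 windows. The letters of the AP-1 motif, TGAGTCA, were found on either strand in the windows of *Gpnmb*, *Itgax* and *Dhrs9*, and in 5.20% of all 32851 windows. AP-1 is a family of transcription factors built from Fos and Jun proteins. The 3 windows are shown, on the strand of the gene, because they are the ones among the 9 that hold the motif. The motif is in capitals and reads TGACTCA where it lies on the other strand. They lie at chr6:49036268-49036567 for *Gpnmb*, chr7:128129300-128129599 for *Itgax* and chr2:69380212-69380511 for *Dhrs9*, each on the plus strand.
*Gpnmb* promoter: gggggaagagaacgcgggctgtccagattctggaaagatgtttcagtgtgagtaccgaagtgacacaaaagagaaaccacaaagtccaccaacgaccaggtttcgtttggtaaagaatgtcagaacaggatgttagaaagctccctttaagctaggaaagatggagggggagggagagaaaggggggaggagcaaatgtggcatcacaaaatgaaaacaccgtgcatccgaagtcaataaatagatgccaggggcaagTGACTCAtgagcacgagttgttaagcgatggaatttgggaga
*Itgax* promoter: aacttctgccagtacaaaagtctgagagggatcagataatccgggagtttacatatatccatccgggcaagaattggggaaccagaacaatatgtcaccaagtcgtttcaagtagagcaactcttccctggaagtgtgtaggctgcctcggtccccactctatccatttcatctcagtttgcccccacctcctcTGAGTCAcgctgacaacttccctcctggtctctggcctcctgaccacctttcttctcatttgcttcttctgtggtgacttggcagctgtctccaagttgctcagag
*Dhrs9* promoter: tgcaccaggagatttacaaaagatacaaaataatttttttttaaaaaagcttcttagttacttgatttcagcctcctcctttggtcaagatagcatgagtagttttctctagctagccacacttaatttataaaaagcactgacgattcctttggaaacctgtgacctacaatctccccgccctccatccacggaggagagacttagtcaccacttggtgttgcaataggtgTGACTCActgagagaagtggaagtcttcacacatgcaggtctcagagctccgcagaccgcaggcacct
The motif began 8 bases after the start site in *Gpnmb*, 56 bases before it in *Itgax* and 18 bases before it in *Dhrs9*. The E-box letters CACGTG, which factors of the MITF and TFEB family bind, were in 7.15% of all windows and in none of the 9. Nor were TCACGTG, with 3.765% of all windows, and TCATGTG, with 3.77%. Of letters for the factor PU.1, GAGGAAGT was in 1 of the 9 (*Spp1*) and 3.20% of all windows. GAGGAA was in 2 (*Spp1* and *Trem2*) and 28.3% of all, and AGAGGAAG in 0 and 4.55% of all. Among the motifs searched AP-1 was in the most of the 9 windows, so nothing is read from its count. A match is a description of these letters and not of binding, and no match says only that the letters are not in this window.

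Many genes that act with the 10 were lower in knockout eWAT too. Of 12 genes of the TREM2 pathway, 9 were called lower and 0 higher, beside 10.7% of all genes called lower, with a median log2 change of -1.18. *Btk*, a kinase, changed by -1.89, *Inpp5d* and *Ptpn6*, which encode the phosphatases SHIP1 and SHP-1, by -1.59 and -1.51, and *Vav1* by -1.42. Of 13 lysosome genes, 11 were called lower and 0 higher (median -0.88): *Ctsl*, a protease, changed by -1.07 and *Grn* (progranulin) by -0.99. *Ctss*, another protease, had means of 10.21 and 8.51 and did not pass.

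Of 12 lipid-handling genes, 7 were called lower and 2 higher. The scavenger receptor *Msr1* changed by -2.25, the cholesterol-esterifying enzyme *Soat1* by -2.20, the lysosomal lipase *Lipa* by -1.87 and the cholesteryl ester hydrolase *Nceh1* by -1.29. The 2 higher genes were *Abca1*, a cholesterol exporter (0.50), and *Fabp4*, the fatty acid carrier of adipocytes (0.24). *Fabp4* thus went the other way from its relative *Fabp5* in the same arrays.

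Of 13 partners of osteopontin, CD9, CD11c and galectin-3, 9 were called lower and 0 higher. They included *Cd44*, a receptor of osteopontin (-2.32), *Itgb2*, which pairs with CD11c (-2.17), *Ptgfrn*, a partner of CD9 (-1.24), and *Itga4* (-1.17). Of 11 transcription factors, 6 were called lower and 1 higher: *Spi1* (PU.1) changed by -1.65, *Tfec* by -1.51 and *Mitf* by -0.71, while *Pparg* was 0.61 higher. Of 10 genes of cell fusion and osteoclasts, 4 were called lower, namely the proton pump subunit *Atp6v0d2* (-3.44), the protease *Ctsk* (-2.98), the RANK receptor *Tnfrsf11a* (-1.77) and *Dcstamp* (-1.12). Without knockout mouse 2, the number called lower was 9 in the TREM2 pathway, 13 in the lysosome list, 8 in lipid handling, 11 among the partners, 6 among the transcription factors and 5 in the fusion list, beside 14.2% of all genes. Without 1 of the other 7 mice at a time these counts lay between 3 and 7 in the TREM2 pathway, 4 and 9 in the lysosome list, 1 and 7 in lipid handling, 0 and 9 among the partners, 1 and 5 among the transcription factors and 2 and 4 in the fusion list, with wild-type mouse 2 giving the lowest or equal lowest count in each, beside 4.33% to 8.58% of all genes. The highest of these counts came without knockout mouse 3, where lipid handling, the partners and the fusion list had as many genes called as with all mice. Of genes called higher, 1 to 2 in lipid handling and 0 to 1 among the transcription factors remained without 1 mouse at a time, beside 380 to 1924 of all 24646 genes.

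The same lists were mostly below the threshold in the other tissues. In iWAT and BAT 0 genes of these 6 lists were called with all mice, and the iWAT medians ran from -0.06 for the transcription factors to -0.74 for the TREM2 pathway. The iWAT arrays rich in B-cell markers were kept here, and their part in these medians was not tested. Without knockout mouse 2, iWAT had 2 partners, 1 lysosome gene, 1 transcription factor and 1 lipid-handling gene called lower and 1 lipid-handling gene called higher, beside 0.475% of all genes called lower. In liver 1 of them was called, the fatty acid transporter *Cd36* (-1.74), and without knockout mouse 2 this was 3 in lipid handling, 2 transcription factors, 1 lysosome gene and 1 partner, beside 0.982% of all genes. *Atp6v0d2*, the gene of the 6 lists with the largest eWAT change, had a change of -2.01 in iWAT (adjusted p = 0.221) and of 1.33 in liver (adjusted p = 0.0595), neither of which passed (limma). Of the markers of other cells in eWAT, 4 of 5 fibroblast and progenitor genes, 3 of 5 mast cell genes and 2 of 5 mesothelial genes were called lower, beside 10.7% of all genes. The fibroblast count was 5 without knockout mouse 2 and 2 without any other 1 of the mice. The mesothelial count was 1 to 3 and the mast cell count was 3 without each mouse, beside 4.33% to 14.2% of all genes. Of 5 adipocyte genes 4 were called higher, and the remaining gene, leptin (*Lep*), was called lower (-0.98), beside 4.57% of all genes called higher. Without 1 mouse at a time, 2 to 4 adipocyte genes were called higher, beside 380 to 1924 of all 24646 genes.

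Across tissues, each normalized as a table of its own, wild-type eWAT had the highest level of 9 of the 10 genes, with no overlap with the next tissue. The gap to the next tissue was widest for *Tm4sf19*, at 4.55 log2 units. *Trem2* averaged 8.58 ± 0.06 in eWAT, 5.43 ± 0.86 in iWAT, 3.63 ± 0.08 in liver and 3.44 ± 0.17 in BAT (SD, n = 4), and liver and BAT overlapped. *Spp1* was the exception: it averaged 6.10 ± 0.35 in liver and 5.90 ± 0.55 in eWAT, which overlapped. *Dhrs9* had another order from the rest, with 7.40 ± 0.10 in eWAT, 4.77 ± 0.84 in BAT and 3.64 ± 0.73 in iWAT, where BAT and iWAT overlapped, and liver lowest with no value above 2.32. Over all arrays of a tissue, 0 of the 10 averaged below the median of all genes in eWAT, 1 in iWAT (*Dhrs9*), 3 in BAT (*Itgax*, *Spp1* and *Tm4sf19*) and 3 in liver (*Itgax*, *Dhrs9* and *Tm4sf19*).

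**Figure D2:**
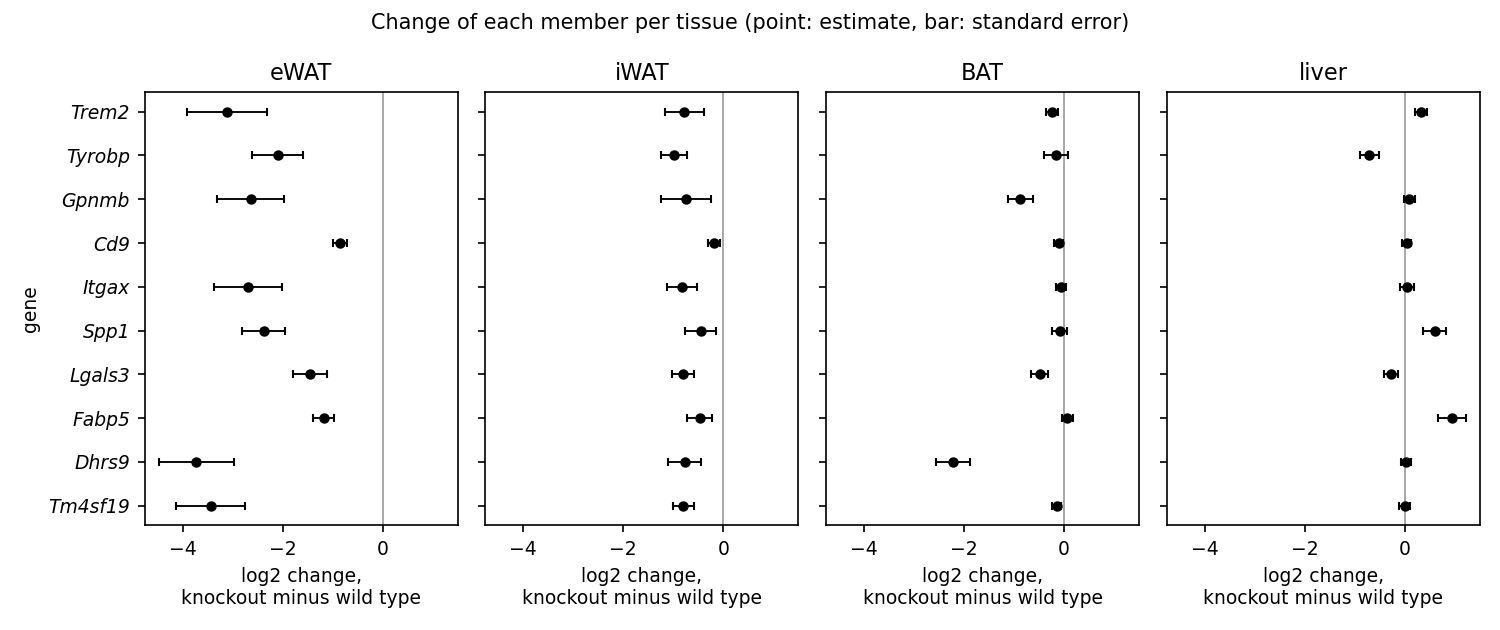
Log2 change of each gene, knockout minus wild type, in the 4 tissues, as the estimate (point) with its SE (bar, n = 4 mice per genotype). The 10 points lie below 0 in eWAT and iWAT, *Dhrs9* and *Gpnmb* stand off from the rest in BAT, and *Fabp5* and *Tyrobp* lie on opposite sides of 0 in liver.

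In iWAT all 10 genes had a lower mean in knockout mice, and 0 of the 10 passed the test (limma, adjusted over 24646 genes). The median log2 change was -0.78, against 0.02 over all genes. No gene of the table passed (0%), the lowest adjusted p being 0.221, and 5 of the 10 had an unadjusted p below 0.05, beside 15.4% of all genes in either direction. Groups did not overlap for 2 of the 10, *Lgals3* and *Tm4sf19*, beside 3.86% of all genes in that direction. *Lgals3* measured 5.69, 5.80, 6.05 and 6.66 in wild-type and 5.11, 5.17, 5.65 and 5.02 in knockout iWAT, a change of -0.81 (SE 0.22, adjusted p = 0.221). Wild-type mouse 1 and knockout mouse 3 differed by only 0.03, so the separation of the groups rests on that gap.

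*Tyrobp* had the largest change in iWAT, -0.99 (SE 0.26, adjusted p = 0.221 from limma). It measured 6.72, 6.45, 7.06 and 6.83 in wild-type and 5.39, 6.61, 5.45 and 5.65 in knockout iWAT. Knockout mouse 2, 1 of the arrays rich in B-cell markers, reached the wild-type range, and the other 3 knockout mice lay at least 0.80 below it. Without that mouse *Tyrobp* changed by -1.27 and passed (adjusted p = 0.0395), and over the alternatives that kept 7 or 8 mice the adjusted p ran from 0.0395 to 0.483. Leaving out the 4 arrays rich in B-cell markers, an alternative chosen after seeing the data, left 2 mice of each genotype. In these *Tyrobp* changed by -1.53 (adjusted p = 0.0103) and was the 1 gene of the 10 that passed, and the share of all genes passing was not counted. The median was -0.93 and all 10 changes were negative. The groups did not overlap for 7 of the 10, beside 28.3% of all genes.

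*Trem2* in iWAT measured 5.26, 4.89, 4.87 and 6.68 in wild-type and 4.54, 4.57, 5.21 and 4.29 in knockout mice, a change of -0.78 (SE 0.39, adjusted p = 0.362 from limma). Wild-type mouse 4 was far above all others and the rest overlapped. The same mouse was the highest wild-type mouse for 9 of the 10 genes, *Tyrobp* being the exception, and without it the median log2 change was -0.41. *Dhrs9* measured 3.27, 3.23, 3.32 and 4.73 in wild-type and 3.33, 2.74, 2.90 and 2.50 in knockout iWAT (adjusted p = 0.319), a change of -0.77 that was -0.41 without wild-type mouse 4. The change of *Gpnmb* was -0.74 (adjusted p = 0.468), that of *Itgax* -0.83 (0.272), that of *Fabp5* -0.47 (0.390), that of *Spp1* -0.45 (0.480) and that of *Cd9* -0.19 (0.429).

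In BAT, 9 of the 10 genes had a lower mean in knockout mice and 0 of the 10 passed (limma), beside 0.0284% of all genes, 7 in number. At an unadjusted p below 0.05 there were 3, *Dhrs9*, *Gpnmb* and *Lgals3*, beside 12.7% of all genes. The median log2 change was -0.15, against 0.00 over all genes. Groups did not overlap for 2, *Dhrs9* and *Tm4sf19*, beside 3.92% of all genes.

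*Dhrs9* stood apart in BAT. It measured 4.10, 5.53, 3.98 and 5.47 in wild-type and 2.46, 2.73, 2.74 and 2.31 in knockout mice, a change of -2.21 (SE 0.34), or 4.63-fold lower, with an adjusted p of 0.0727 from limma. All 4 knockout mice, mouse 2 included, lay at least 1.24 below the lowest wild-type mouse, and the wild-type mice fell into a higher and a lower pair. The higher pair was mice 2 and 4. Muscle markers were high in wild-type mice 2 and 3, and their part in the *Dhrs9* values was not tested. Without the 3 muscle-rich arrays, an alternative also chosen after seeing the data, the *Dhrs9* change was -2.28 (adjusted p = 0.422, with 2 wild-type and 3 knockout mice), 0 of the 10 genes passed, the median was -0.36, and the groups did not overlap for 8 of the 10, beside 11.4% of all genes. Without wild-type mouse 1 it was -2.43 and passed (adjusted p = 0.0323), and the adjusted p over the alternatives that kept 7 or 8 mice ran from 0.0323 to 0.257.

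*Gpnmb* in BAT measured 4.88, 4.69, 4.85 and 5.18 in wild-type and 3.42, 4.84, 4.00 and 3.83 in knockout mice, a change of -0.87 (SE 0.25, adjusted p = 0.188 from limma). Knockout mouse 2 was again in the wild-type range and the other 3 were below it. *Lgals3* changed by -0.49 (adjusted p = 0.249) and *Trem2* by -0.23 (adjusted p = 0.439). The remaining 6 changes in BAT lay between -0.16 and 0.07. Among these, *Tm4sf19* had groups that did not overlap, at 2.22 to 2.50 in wild-type and 2.04 to 2.22 in knockout mice with less than 0.01 between them, all below the median of all genes in wild-type BAT of 2.83.

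**Figure D3:**
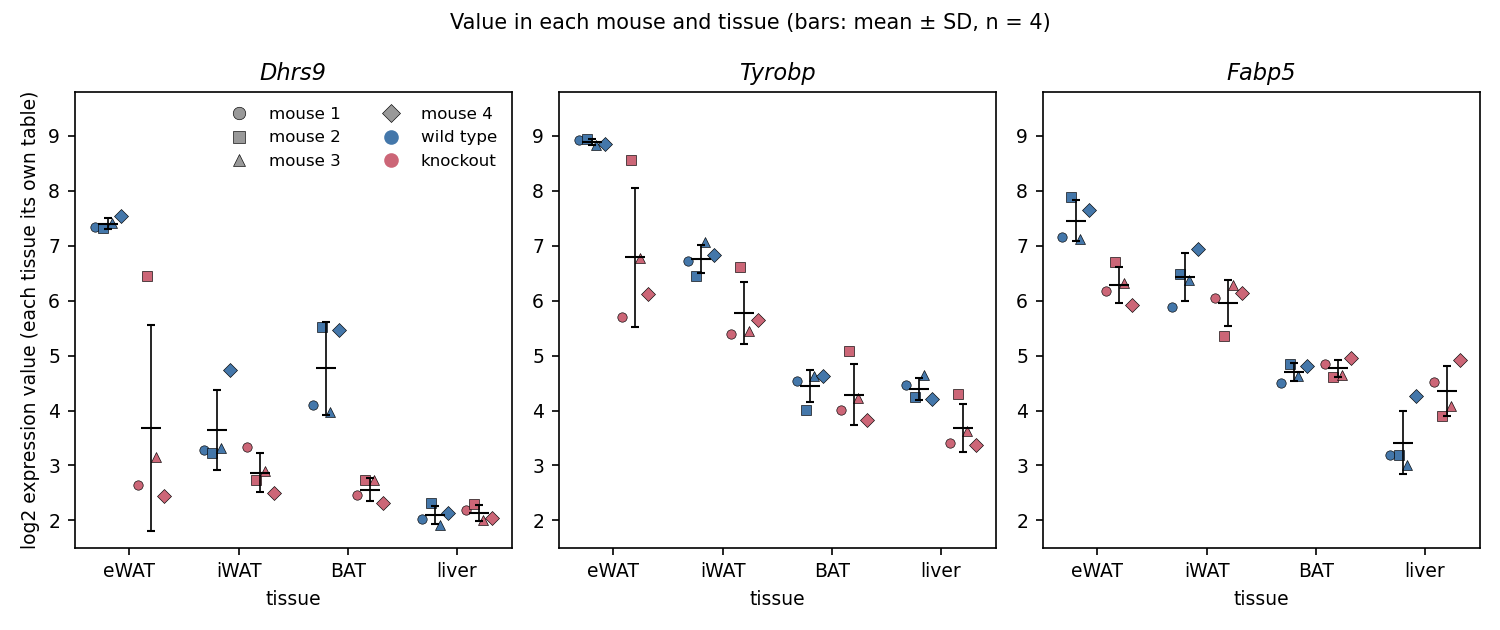
Log2 expression of *Dhrs9*, *Tyrobp* and *Fabp5* in each mouse of the 4 tissues (blue, wild type; red, knockout; marker shape, mouse number), with mean and SD (n = 4) as bars; each tissue was normalized as a table of its own. The *Dhrs9* groups are apart in eWAT and BAT, knockout mouse 2 is the highest knockout point for *Tyrobp* in each tissue, and *Fabp5* is lower in knockout eWAT and has a higher knockout mean in liver.

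In liver only 2 of the 10 genes had a lower mean in knockout mice, *Tyrobp* and *Lgals3*, and the median log2 change was 0.05, against 0.01 over all genes. None of the 10 passed in either direction (limma), beside 0.499% of all genes called lower and 0.162% called higher, and 4 had an unadjusted p below 0.05, 1 of them lower and 3 higher, beside 13.3% of all genes in either direction. Groups did not overlap in the lower direction for 0 of the 10, beside 4.16% of all genes.

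*Fabp5* had the largest change in liver, upward: 3.19, 3.18, 3.01 and 4.27 in wild-type and 4.51, 3.90, 4.08 and 4.92 in knockout mice, a change of 0.94 (SE 0.28, adjusted p = 0.170 from limma). Wild-type mouse 4 lay among the knockout mice and the other 3 lay below all of them. Without wild-type mouse 4 the change was 1.23 and passed (adjusted p = 0.0462), and over its alternatives the adjusted p ran from 0.0174, with the replicate number as a block, to 0.407. *Spp1* measured 5.84, 6.45, 5.76 and 6.34 in wild-type and 6.54, 6.65, 6.23 and 7.37 in knockout liver (0.60, adjusted p = 0.285), and *Trem2* changed by 0.32 (adjusted p = 0.282).

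*Tyrobp* in liver measured 4.46, 4.24, 4.65 and 4.21 in wild-type and 3.42, 4.31, 3.63 and 3.38 in knockout mice, a change of -0.71 (SE 0.19, adjusted p = 0.126 from limma). Knockout mouse 2 was within the wild-type range and the other 3 were below it. Without that mouse the change was -0.92 and passed (adjusted p = 0.00548). Markers of Kupffer cells, the resident macrophages of the liver, had a median change of -1.18 there, with 0 of 5 called. Without knockout mouse 2 their median was -1.60 with 2 of 5 called lower, beside 0.982% of all genes. The part of these markers in the *Tyrobp* value was not tested. The other 6 genes changed by -0.27 to 0.10 in liver.

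The change in iWAT was then set against that in BAT and in liver within each mouse, since the labels number the mice alike in each tissue. The values themselves tied the numbers only weakly. Deviations from the group mean had a same-mouse median r of 0.03 for iWAT and BAT and 0.04 for iWAT and liver. The same mouse was the best match for 1 and 3 of 8 mice. None of the 10 genes passed for iWAT against BAT (limma), beside 0% of all genes, and 5 had an unadjusted p below 0.05, beside 9.58% of all genes. The *Tyrobp* change was 0.83 more negative in iWAT than in BAT, a difference of -0.83 (SE 0.16, adjusted p = 0.2001). *Dhrs9* went the other way, being 1.44 less negative in iWAT than in BAT (SE 0.36, adjusted p = 0.296). It was the 1 gene besides *Gpnmb*, with 0.13 (adjusted p = 0.945), for which the change in BAT was the more negative.

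For iWAT against liver none of the 10 passed either (limma), beside 0.00406% of all genes, and 6 had an unadjusted p below 0.05, beside 11.0% of all genes. All 10 differences were negative, from -0.23 for *Cd9* to -1.41 for *Fabp5* (SE 0.24, adjusted p = 0.105). That of *Tm4sf19* was -0.80 (SE 0.19, adjusted p = 0.195), that of *Trem2* -1.10 (SE 0.43, adjusted p = 0.397) and that of *Spp1* -1.05 (SE 0.32, adjusted p = 0.299). That of *Tyrobp*, which was lower in both tissues, was -0.28 (SE 0.16, adjusted p = 0.546).

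General macrophage genes were lower in knockout eWAT as well. Of 9 such genes, 8 were called lower, beside 10.7% of all genes, with a median log2 change of -1.58. Without any 1 of the mice other than knockout mouse 2 the count was 2 to 6, beside 4.33% to 8.58% of all genes. *Itgam* (CD11b) changed by -2.49, *Adgre1* (F4/80, listed as *Emr1*) by -2.34, *Cd68* by -2.26 and the Fc receptor gene *Fcgr1* by -2.11. Of 10 genes of resident macrophages 4 were called lower. The count was 7 without knockout mouse 2, beside 14.2% of all genes, and 2 to 4 without any other 1 of the mice. *Folr2* changed by -2.47, *Vsig4* by -1.67 and *Mrc1* by -1.33, while *Lyve1* had means of 7.51 and 6.18 and did not pass. In iWAT 0 of either list passed, with medians of -0.96 and -0.82 beside -0.78 for the 10 genes. In liver 1 resident macrophage gene was called lower, *Fcna* (-0.97), and 0 general macrophage genes, beside 0.499% of all genes. Without knockout mouse 2 these counts were 4 and 3 in liver, beside 0.982% of all genes, and 0 and 2 in iWAT, beside 0.475%.

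The mean of the 10 genes minus the mean of the general macrophage genes on the same array gave an unequal change within mice. In eWAT it went from -0.45 ± 0.15 in wild-type to -1.16 ± 0.41 in knockout mice (SD, n = 4), a fall larger in the 10 genes by 0.71 log2 units, with knockout mouse 2 at -0.63. In iWAT it went from -1.51 ± 0.47 to -1.26 ± 0.46, and in BAT from -1.15 ± 0.31 to -1.33 ± 0.13, both within the spread between mice. In liver it went from -1.22 ± 0.38 to -0.65 ± 0.26, since the general macrophage genes averaged 0.46 lower in knockout liver and the 10 genes did not. Gene by gene, the change of *Dhrs9* beyond that of the general macrophage genes was -2.07 in eWAT and -1.96 in BAT, with groups that did not overlap in either, and 0.16 in iWAT. *Tm4sf19* had -1.79 in eWAT, also with no overlap, and *Cd9*, *Lgals3* and *Fabp5* had 0.80, 0.20 and 0.47, having changed less than the macrophage genes around them. *Tyrobp* in liver, at -0.25, had groups that did not overlap too, and the groups overlapped for every other gene and tissue. These values have no test. The genes were chosen with the eWAT values known, *Dhrs9* and *Tm4sf19* being singled out there, so nothing is read from their larger fall in eWAT. The share of all genes with no overlap on this measure was not counted.

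**Figure D4:**
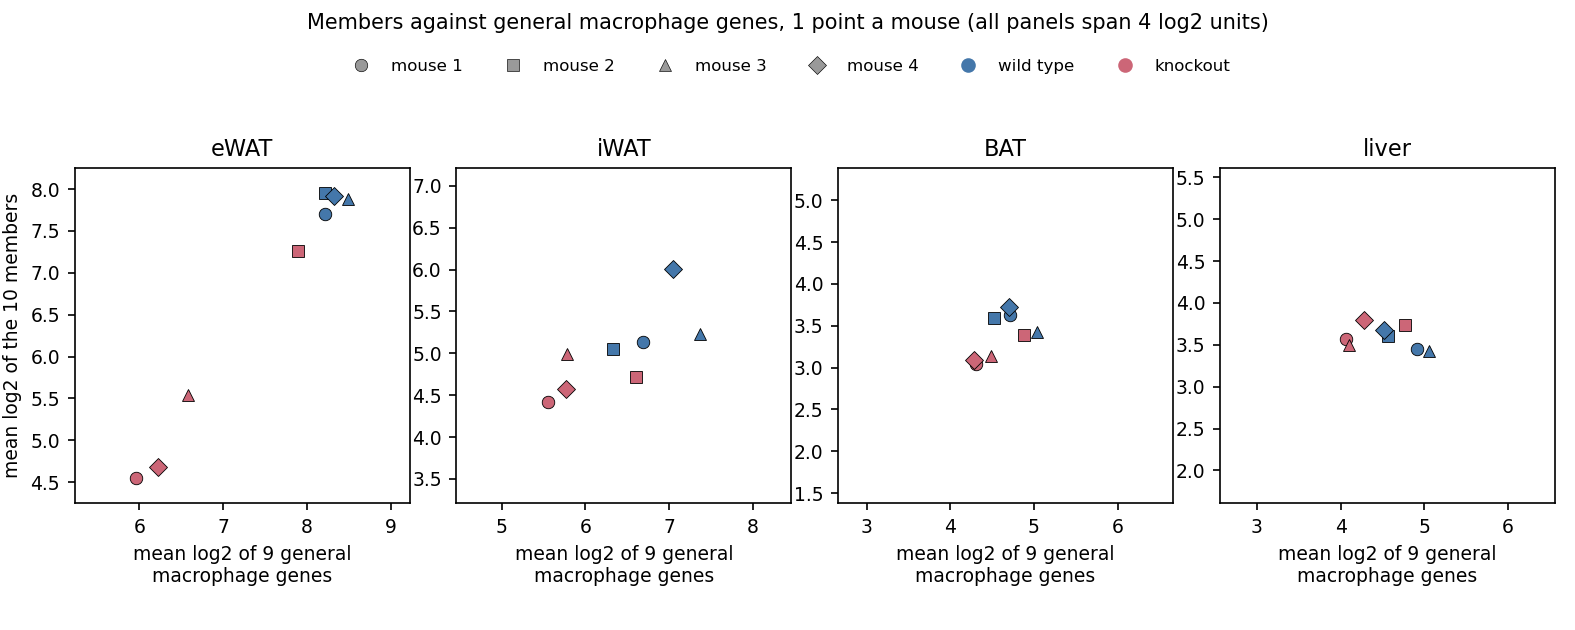
Mean log2 value of the 10 genes (y axis) against that of 9 general macrophage genes (x axis) in each mouse (blue, wild type; red, knockout; marker shape, mouse number), with 4 log2 units on each axis of each panel. In eWAT knockout mouse 2 lies beside the wild-type mice on both axes, and in liver knockout mice 1, 3 and 4 lie to the left of all wild-type mice, within or above the wild-type range on the y axis.

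Variation between mice of the same genotype and depot was then described on the 24 fat arrays, after the mean of each group had been removed. The 45 pairs of the 10 genes had a median Pearson r of 0.75, which was 0.50 on the 21 arrays without knockout mouse 2 and 0.54 on the 12 wild-type arrays. Each gene was set against the mean of the other 9: *Trem2* had r = 0.96, *Tm4sf19* 0.95, *Lgals3* 0.92, *Itgax* 0.90 and *Gpnmb* 0.89. At the low end were *Cd9* with 0.78, *Tyrobp* with 0.76 and *Fabp5* with 0.46. The 95th percentile of all genes was 0.50, and 9 of the 10 lay above it, *Fabp5* being the exception. The arrays share mice and tables, and knockout mouse 2 deviated by 1.76 in eWAT, so that 7 of the 10 were above the 95th percentile (0.48) on the 21 arrays without that mouse. On the 12 wild-type arrays 5 were above it (0.68), and *Tyrobp* had r = 0.10.

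Outside all lists, the 8 genes that followed the mean of the 10 most closely over the 24 arrays were *Anpep* (r = 0.96), *Gla* (0.95), *Rnh1* (0.95), *Cd300lb* (0.94), *Gusb* (0.94), *Tlr13* (0.94), *Cd200r1* (0.94) and *F7* (0.93). *Anpep* encodes the aminopeptidase CD13, *Gla* and *Gusb* encode lysosomal enzymes and *Tlr13* an endosomal receptor of bacterial RNA. *Gla* and *Anpep* had r = 0.95 and 0.95 on the 12 wild-type arrays, whereas *F7*, which encodes coagulation factor VII, had 0.56 there. Those 12 arrays are part of the 24 by which the 8 genes were picked. On them the mean of the 10 genes deviated most in iWAT of wild-type mouse 4, by 0.65, against -0.30 to 0.13 on the others. The part of that array in these r values was not tested. In iWAT the changes of the 8 genes lay between -0.06 for *Rnh1* and -1.22 for *Tlr13*, and none passed.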

How the data were processed

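Total RNA (100 ng per array) from 4 tissues of 4 wild-type and 4 knockout mice was hybridised to Affymetrix Mouse Gene 2.1 ST arrays. The authors deposited 1 table per tissue of log2 expression values per gene symbol. Software, summarisation and normalization are not given in the sources used here. Array medians were nearly equal within a table and differed between tables, so tests were run within a table. The deposited values were averages of several probe sets for 840 genes, and 2 rows (1 in eWAT) with a blank or number-like name were left out, leaving 24646 genes.

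Knockout was compared with wild type in each tissue with limma 3.58.1 (lmFit, eBayes) in R 4.3.3, with Benjamini-Hochberg adjustment over all genes, and a gene was called at an adjusted p below 0.05. The iWAT changes were compared with those in BAT and liver on differences within each mouse. Replicates are separate mice, and their number limits the precision. The procedure was tested on simulated data. The 10 genes and all gene lists were chosen with earlier results of these data known. Beside the 10 genes and *Gpr146*, the text names up to 4 genes per list with the largest eWAT change, the 8 genes that covaried best with the 10, and a few single genes chosen after their values were seen, namely *Abca1*, *Fabp4*, *Pparg*, *Lep*, *Cd36* and *Fcna*. *Adgre1* and *Spi1* were matched to *Emr1* and *Sfpi1* through RefSeq synonyms. Some genes that the rule named are not reported here. Promoter windows were read from RefSeq (GRCm38.p6). Alternatives were quantile normalization, equal array medians, leaving out dim genes (mean below the table's median), array weights, a trended and robust prior, the methods' t-test, the replicate number as a block, no link between tissues of a mouse, and leaving out each mouse. Leaving out B-cell-rich iWAT arrays (marker mean above 5) or muscle-rich BAT arrays (above 6), and list counts without single mice, were added after seeing the data. Plots were drawn with matplotlib 3.10.9 in Python 3.11.15.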

Additional observations from a re-analysis of the deposited data

Results flagged for a closer look

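For each of the 10 genes, each tissue and each genotype, the 4 mice were examined for 1 that stood far from the other 3. This was so in 9 of 80 groups, where chance gives about 1 in 20, and the groups share mice. In eWAT *Itgax* was high in wild-type mouse 3, at 8.20 against 7.86 in the next mouse. In iWAT *Dhrs9* was high in wild-type mouse 4, at 4.73 against 3.32, and without this mouse the *Dhrs9* change there was -0.41 in place of -0.77. In BAT *Trem2* was low in wild-type mouse 3 (3.19 against 3.49), *Tyrobp* was low in wild-type mouse 2 (4.01 against 4.54) and *Tm4sf19* was high in wild-type mouse 1 (2.50 against 2.26). Wild-type mice 2 and 3 were also the wild-type BAT arrays rich in muscle markers, whose part in these values was not tested. In liver *Lgals3* was low in wild-type mouse 4 (3.71 against 3.97) and high in knockout mouse 2 (4.14 against 3.53). *Fabp5* was high in the same wild-type mouse 4 (4.27 against 3.19), and *Tm4sf19* was low in wild-type mouse 3 (1.88 against 2.27).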

How the results depend on the processing

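Of the 10 genes, 0 passed in eWAT with the methods' t-test after adjustment, beside 38 of all 24646 genes. Without 1 mouse 5 to 10 passed, beside 4.33% to 14.2% of all genes called lower, and nothing is read from these eWAT counts. In iWAT 0 to 1 passed without 1 mouse, in BAT 0 to 1 and in liver 0 to 1, beside at most 227, 80 and 300 of all genes. Without the B-cell-rich arrays 1 passed in iWAT, and the share of all genes passing there was not counted. Without 1 mouse the median log2 change in iWAT ran from -0.91 to -0.41, and without the muscle-rich arrays that in BAT was -0.36. The number of genes with no overlap in the lower direction was 2 to 4 in iWAT, 2 to 5 in BAT and 0 to 2 in liver without 1 mouse. The shares of all genes without 1 mouse were not counted, and with all mice they were 3.86%, 3.92% and 4.16%. Groups of fewer mice separate more easily, so these shares are no background for the counts without 1 mouse. The number was 7 in iWAT without the B-cell-rich arrays, beside 28.3% of all genes, and 8 in BAT without the muscle-rich ones, beside 11.4%.

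Small changes turned sign: *Tm4sf19* in liver was -0.030 with quantile normalization and -0.017 with equal medians. Without 1 mouse, *Tm4sf19* in liver ran from -0.096 to 0.076, *Dhrs9* from -0.026 to 0.11, *Itgax* from -0.058 to 0.17 and *Cd9* from -0.013 to 0.071, in BAT *Itgax* from -0.10 to 0.0033 and *Spp1* from -0.18 to 0.052, and the *Gpnmb* difference of iWAT minus BAT from -0.29 to 0.44. Over all genes, 3758 were called in eWAT (38 to 5429 over the alternatives), 0 in iWAT (0 to 227), 7 in BAT (0 to 80) and 163 in liver (2 to 300). The number of called genes was lowest in eWAT and liver with the t-test. The cause of these shifts was not tested. Genes dimmer than the table's median have no value where dim genes were left out.

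With the replicate number as a block, 10 of the 10 genes passed in eWAT, 0 in iWAT, 0 in BAT and 1 in liver (*Fabp5*). The counts over all genes with this block lay within the ranges given above. Those ranges do not give the share of all genes for this block, so nothing is read from its counts. Same-numbered wild-type and knockout mice did not all deviate together, with correlations of 0.00 to 0.16 in eWAT, -0.38 to 0.67 in iWAT, 0.01 to 0.22 in BAT and -0.06 to 0.11 in liver, so the numbers were not taken as pairs of mice.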
